A study of Drosophila melanogaster with 6 samples.

Results

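Control ovarian somatic cells (OSCs) lacking *l(3)mbt* were described here on their own, from their 3 libraries among the 6 of the series. The libraries were chosen by their label: Δ*l(3)mbt* OSCs that received a 21-nt siRNA against *renilla*, a luciferase with no counterpart in the fly genome, and were harvested 48 h after nucleofection. The other 3 libraries, from the same line after *ovo* siRNA, were not used, so that no value below is a difference between treatments. Every library came from one stock-center knockout line cultured with fly extract and insulin, and the cells were nucleofected. What this line shares with wild-type OSCs, or owes to the knockout, the siRNA, or the medium, cannot be told apart from these 3 libraries. The labels number the replicates but do not say whether they were separate cultures, so the SD printed below measures only the spread between these samples.

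OSCs are an immortal line of follicle cell origin from the *Drosophila* ovary. Follicle cells are the somatic epithelium that wraps the germline cyst, patterns the oocyte through EGFR, Notch, JAK/STAT, and BMP signals, and late in oogenesis secretes yolk, the vitelline membrane, and the chorion. They silence transposons with a short version of the piRNA pathway built on Piwi, whereas germ cells add Aub, AGO3, and Vas in a perinuclear body known as nuage, and Rhi, Del, and Cuff at dual-strand piRNA clusters. L(3)mbt is a chromatin protein with malignant brain tumor repeats that is found in the LINT and dREAM repressor complexes, and flies that lack it develop larval brain tumors that transcribe germline genes.

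The libraries were poly(A)-selected and strand-specific, and the deposited values were gene counts divided by a size factor for each library ("normalized counts"). Replicates 1, 2, and 3 held 11623446, 11337660, and 2759594 recovered reads in genes, so replicate 3 had the least depth. A count of 3 reads, used here as the floor, corresponded to 2.73, 2.86, and 13.1 normalized counts, and covers counting error only. Values of a gene are given below in the order replicate 1, 2, and 3, in normalized counts. Levels of different genes are compared per kb of annotated exon, unless counts are named as the scale, as a mean ± SD over the 3 libraries or as a percentile among 13916 nuclear protein-coding genes. A gene was taken as expressed with at least 50 normalized counts in each library, as at the floor with at most 3 reads in each, and as trace otherwise.

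Replicates 1 and 2 resembled each other more than either resembled replicate 3. Over the 6307 genes whose mean reached 100 normalized counts, the log2 ratio of replicate 1 to replicate 2 had an SD of 0.18, and 0 of these genes differed by 2-fold or more. The ratio of replicate 1 to replicate 3 had an SD of 0.59, and 543 genes (8.61%) differed by 2-fold or more. Replicates 1 and 2 were counted as separate samples, since the chi-square statistic of their reads averaged 5.46 per gene, where sampling of independent reads alone gives about 1. PCR copies and run effects can also raise this statistic, so it does not settle how the libraries arose.

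The difference of replicate 3 followed exonic length. In the shortest of 10 equal bins of genes (median 724.5 bp), replicate 3 was a median of 1.76-fold the mean of replicates 1 and 2, and in the longest (median 8278 bp) it was 0.679-fold. The corresponding log2 medians of replicate 1 over replicate 2 were -0.02 in the shortest bin and -0.02 in the longest. As a description over genes, which are not replicates, Spearman's rho with length was 0.71 for the log2 ratio of replicate 1 to 3 and -0.10 for that of 1 to 2. Short genes therefore stand higher, and long genes lower, in a 3-library mean than in replicates 1 and 2, and a mean ± SD per kb carries this shift. The 3 values are printed for most genes for that reason. Replicate 3 was also the shallowest library, and the part of depth in this was not tested.

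**Figure D1:**
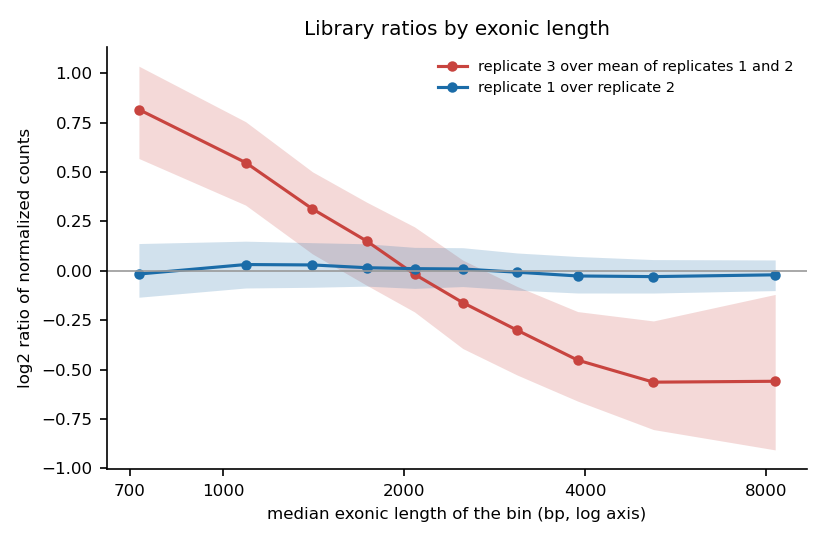
Median log2 ratio of normalized counts (y axis) in 10 bins of genes by exonic length (x axis, log scale), for replicate 3 over the mean of replicates 1 and 2 and for replicate 1 over replicate 2; shading spans the 25th to the 75th percentile of genes. The first ratio declines with length, with medians of 0.82 in the shortest bin and -0.56 in the longest, while the second stays near 0.

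Of 17807 genes in the table, 6676 were expressed, 2859 were at trace level, and 8272 were at the floor. Among the nuclear protein-coding genes, 6553 (47.1%) were expressed and 5087 (36.6%) were at the floor, and these shares are the background for each group below. Replicate 3 alone kept few protein-coding genes from being placed as expressed. 6658 protein-coding genes reached 50 in replicates 1 and 2, of which 105 fell short of it in replicate 3 and 0 were at 0 there. Another 116 reached 50 in replicate 3 and in neither other library. Whether the depth of replicate 3 was the reason was not tested. The floor changed with depth, and held 9558 genes with replicates 1 and 2 thinned to the depth of replicate 3. Levels of expressed genes spread widely, with a median of 229 normalized counts per kb, a 10th percentile of 62.8, and a 90th percentile of 1171.

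A value of 0 could not always be read as silence. Of 333 protein-coding genes whose exons lie at 99% or more inside exons of another gene on the same strand, 326 were listed at 0 in all 3 libraries, against 3009 of 12845 genes that share no exonic base. *cup*, *Hsp22*, and *Prx5* are such genes, listed at 0 in all 3 libraries. Among genes named below, *armi*, *Myb*, *vas*, *Nxf3*, *Sf3b3*, CG13741, *osk*, *mei-W68*, *elav*, *ImpL2*, *Antp*, *Krn*, and *RpL22* share at least 20% of their exonic bases with another gene on the same strand. *Prosalpha1*, a core subunit of the proteasome, was also listed at 0 in each library although its exons are shared with no other gene. All 13 protein genes of the mitochondrial genome were listed at 0 as well, and no level is given for them.

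The most abundant messages encoded the translation machinery. *eEF1alpha1*, the elongation factor that delivers aminoacyl-tRNA to the ribosome, took the largest share of counts in each library, 2.05%, 2.11%, and 1.97%, with 217143, 227838, and 238494 normalized counts. The 100 highest genes held 27.1%, 27.6%, and 35.6% of the counts. Cytosolic ribosomal proteins held 12.6% and 12.5% in replicates 1 and 2 but 21.6% in replicate 3, where 84 of 85 stood above the mean of the other 2 and the median ratio over all of them was 2.06-fold. Of the 20 genes highest per kb, 18 were ribosomal proteins, led by *RpL41* at 23493, 25903, and 71987. Others among them were *RpS27A*, *RpL31*, *RpL36A*, *RpL21*, *RpL35*, *RpL29*, *RpL14*, *RpL27A*, *RpS27*, *RpS24*, *RpL39*, *RpL6*, *RpL23*, *RpL40*, *RpS25*, and *RpS7*. The other 2 were *eEF1alpha1* and *pAbp*, the cytoplasmic poly(A)-binding protein, at 120949, 126733, and 229167.

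Outside the ribosome, the highest levels per kb included further translation factors and genes of the cytoskeleton, glycolysis, and stress responses, which were singled out after their values were seen. *alphaTub84B*, the major α-tubulin, reached 27140.3 ± 3944 normalized counts per kb, and *Act5C*, a cytoplasmic actin, reached 15957 ± 1349.8. *scyl*, a hypoxia-responsive inhibitor of TOR signaling of the REDD1 family, had 57409, 65232, and 90483 normalized counts. *Ldh*, which reduces pyruvate to lactate, had 33274, 41223, and 47422. By counts rather than per kb, long messages also ranked high: *Imp*, an RNA-binding protein of the IGF2BP family, had 91666, 86779.9, and 94025, and *mamo*, a BTB zinc-finger protein required in oogenesis, had 71585, 70545, and 90781. *Xrp1*, a transcription factor of the stress response to ribosomal protein loss, had 37608, 40339, and 36453, which placed it among the 20 genes with the highest mean count.

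Most listed transcription factors and surface markers of follicle cells were expressed. Without another cell type for comparison, these shares do not test the follicle cell label. Of 21 regulators of the somatic gonad and follicle cells, 18 were expressed, with a median at the 78.2 percentile of protein-coding genes. *tj* (Traffic jam), the Maf factor of the somatic gonad that activates *piwi*, had 12598, 13869.7, and 11823 normalized counts and lay at percentile 98.6. *zfh1*, a zinc-finger homeodomain repressor required in somatic stem cells of the testis, had 16022, 16909, and 13776, and *chinmo*, a BTB zinc-finger protein that maintains the sex identity of somatic cells in the testis, had 22796, 22489, and 25129.8. *Stat92E*, the JAK/STAT transcription factor, had 5921, 6471, and 4112, and *exd*, a homeodomain cofactor, 2544, 2705, and 2076.

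The early follicle regulators *eya* and *cas* ranked lower, at percentiles 73.3 and 54.6. Their counts were 777, 806, and 569 for *eya* and 160.3, 191, and 83.2 for *cas*, lowest in replicate 3 for both. *mirr*, an Iroquois factor of dorsal follicle cells, had 2115, 2413, and 2058. *bab2* and *bab1*, BTB factors of the terminal filament, differed in level: *bab2* had 460 ± 141 normalized counts per kb, against 13.1 ± 2.94 for *bab1*. *br*, an ecdysone-induced zinc-finger gene that marks the dorsal appendage primordia, had 2964, 2788, and 2413. The border cell regulator *slbo*, a C/EBP factor, had only 4.56, 12.4, and 8.76, *hth*, the partner of Exd, 4.56, 0, and 4.38, and *pnr*, a GATA factor of dorsal anterior follicle cells, 0, 0.955, and 0.

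Surface and secreted follicle cell markers gave 16 expressed genes of 21. *fax*, a membrane-associated protein named for failed axon connections, had 34040.1, 33184, and 44002, and *Fas3* (Fasciclin 3), the adhesion molecule used to stain early follicle and polar cells, 2933, 3059.6, and 2969. *ImpL2*, a secreted antagonist of insulin-like peptides, had 3442, 4908, and 7124, highest in replicate 3. *tsl*, the cue for Torso activation made by terminal follicle cells, had 141, 145, and 175. Of the polar cell and patterning genes, *hh* had 682, 659.6, and 622, *upd3* 95.7, 157, and 123, *wg* 82.9, 89.7, and 35.03, and *upd1* was listed at 0 in all 3 libraries. *pip*, the sulfotransferase of ventral follicle cells, stayed at 30.1, 38.2, and 39.4.

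Genes of the late follicle epithelium that had a row under their symbol were nearly all unexpressed. Of 22 yolk, vitelline membrane, and chorion genes with a row, 1 was expressed, 7 were at trace level, and 14 were at the floor, 11 of them listed at 0 throughout. The expressed one was *Vml*, a vitelline membrane component, at 70.1, 97.4, and 70.1. The yolk protein genes had 1.82, 11.5, and 4.38 for *Yp1*, 4.56, 6.68, and 0 for *Yp2*, and 30.97, 9.55, and 26.3 for *Yp3*. The vitelline membrane genes *Vm26Aa* and *Vm32E* and the chorion genes *Cp15*, *Cp16*, and *Cp19* were listed at 0. The eggshell gene *dec-1* had no row under that symbol. A row named Dec-01, which no annotation matched, had 5809.6, 5731, and 4519 normalized counts. It was left without a gene name and outside the counts above. Spreadsheets can turn such a symbol into a date, but whether this row is *dec-1* could not be settled from its symbol. If it is, the late follicle genes include another expressed one.

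All 26 listed genes of the piRNA pathway used in somatic cells were expressed, at a median percentile of 79.99. *piwi*, the nuclear Argonaute that carries piRNAs to nascent transcripts, had 13461, 13387, and 8302. *armi*, the helicase that passes precursors to the mitochondrial processing site, had 12358, 11503, and 7151, although its annotated exons overlap a same-strand neighbor nearly throughout. The Tudor protein *fs(1)Yb*, which organizes the somatic processing bodies, had 986, 874, and 644, and the endonuclease *zuc* 257, 244, and 420.4. *mael*, which acts with Piwi in transcriptional silencing, had 1363, 1273, and 1296. Of the silencing complex, *Panx* had 517, 457, and 355, *nxf2* 1353, 1217, and 1103, and *arx* 147, 217, and 298. The H3K9 methyltransferase *egg* had 1291, 1129, and 731, and its cofactor *wde* 435, 437, and 342, the lowest per kb of the list. The flamenco transcript, precursor of most piRNAs in follicle cells, had 39.2, 52.5, and 35.03 over its annotated exons, under 50 in 2 of the 3 libraries. The treatment of multimapping reads is not given, so this count may miss reads and does not show that the transcript is low.

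Genes of the germline-specific piRNA pathway were present at very unequal levels. Of 13, 9 were expressed, 4 were at trace level, and 0 at the floor. *del* (Deadlock), the partner of Rhino at dual-strand clusters, had 3796, 3861, and 1857, *vas*, the DEAD-box helicase of nuage, 2200.1, 2021, and 1668, and *krimp* (Krimper), the Tudor protein that bridges Aub and AGO3, 2217, 2194, and 1992. Those 3 lay at percentiles 93.99, 93.3, and 93.2 of protein-coding genes. The export factor CG13741 (Bootlegger) had 914, 802, and 517, and the Tudor gene *tej* 486, 500.2, and 442.

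Messages of the PIWI proteins of the ping-pong cycle were far lower. *aub* had 119, 90.7, and 109 normalized counts, or 35.3 ± 4.83 per kb, against 3813 ± 962 per kb for *piwi*. *AGO3* had 15.5, 21.0, and 21.9 and did not reach 50 in any library. Of the Rhino complex, *cuff* had 101, 105, and 144 and *rhi* itself 3.64, 1.91, and 0, so that *del* was expressed while *rhi* stayed at trace level. *moon* (Moonshiner), which links Deadlock to Trf2, had 1.82, 3.82, and 26.3, and its highest value came from the shallowest library.

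*Nxf3*, the exporter of germline cluster transcripts, was the gene with the smallest ratio of replicate 3 to the other libraries, at 194, 244, and 17.5. It was recovered from 213, 256, and 4 reads, and 59.9% of its annotated exon lies within a same-strand neighbor, *ssp2*. Its placement as trace therefore rests on replicate 3.

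The 6 other nuage genes were all expressed. *spn-E* (spindle E), a Tudor helicase, had 5278, 5026, and 3126, *tud*, the founding Tudor protein, 8275, 9002, and 6699.5, and the arginine methyltransferase *csul* 599, 629, and 438. *vls*, the partner of *csul*, had 336, 343, and 377, *tapas* 1330.1, 1463, and 823, and *squ* 289.7, 202, and 271.

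Germ cell and oocyte genes were expressed at about the share of all protein-coding genes. Of 37 genes, 18 were expressed (48.6%, against 47.1% of all), 14 were at trace level, and 5 at the floor. The list median lay at percentile 55.3. The highest were *me31B* at 4820.2, 4519, and 4252 and *tral* at 7216, 7265, and 7435, components of maternal RNA granules that also act in somatic cells. *ovo*, the zinc-finger gene required in the female germline, had 1300, 1590.4, and 1642 at percentile 74.2, over all its isoforms. *bgcn* (benign gonial cell neoplasm) had 1285, 1333, and 1112, *mei-P26*, a TRIM-NHL protein of germline differentiation, 4478, 4898, and 4812, and *pgc*, the peptide that represses transcription in pole cells, 355, 327, and 574. *Phf7*, a male germline chromatin reader, had 379.9, 446, and 394, and *grk* (gurken), the EGFR ligand of the oocyte, 118, 103, and 131.

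By role, 10 of 16 germ cell fate genes, 7 of 11 genes of oocyte patterning, and 1 of 10 genes of egg activation and maternal products were expressed. Among those that were not, *nos*, *bam*, *zpg*, *osk*, *orb*, and *otu* stayed under 50 in every library. *nos* (nanos) had 18.2, 5.73, and 4.38, *bam* (bag of marbles) 17.3, 4.77, and 4.38, and *zpg*, the germline gap junction gene, 5.47, 2.86, and 4.38. *osk* (oskar) had 1.82, 8.59, and 0, *orb* 41.9, 34.4, and 13.1, and *otu* (ovarian tumor) 0, 0.955, and 0. Whether the expressed germline genes came from most cells at these levels or from few cells at higher levels cannot be told apart in bulk RNA, since fewer cells of a type and less RNA per cell give the same count.

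Meiosis genes were mostly expressed, 13 of 18. *cona* (corona), a central element of the synaptonemal complex, had 4067, 4476, and 5798 and lay at percentile 98.95. Its partners *corolla* and *c(3)G* had 789, 859, and 670 for *corolla* and 571, 618, and 359 for *c(3)G*, at percentiles 85.01 and 73.5. The meiotic cohesion gene *sunn* had 1398, 1427, and 963. The double-strand break gene *mei-W68*, the fly Spo11, had 30.1, 22.9, and 8.76, and *ord*, the cohesion regulator, 0.911, 10.5, and 0. *ncd* (non-claret disjunctional) and *sub* (subito), which also serve mitosis, had 1644, 1507, and 1572 for *ncd* and 705, 663, and 731 for *sub*.

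Testis genes were largely silent. Of 34 spermatocyte and sperm genes, 5 were expressed and 22 were at the floor, 15 of them listed at 0. The 3 highest per kb were *mia* at 359.9, 327, and 346, *topi* at 272, 217, and 140.1, and *achi* at 179, 179, and 118, all spermatocyte transcription regulators. *bol* (boule) had 63.8, 52.5, and 52.5, and the phosphatase *twe* (twine) 106, 62.1, and 101. Their partners in the spermatocyte program stayed at the floor, with 1.82, 0.955, and 0 for *aly* and 0, 0, and 0 for *comr*, and so did the protamine *ProtA* at 0, 0, and 0 and the sperm tubulin *betaTub85D* at 0, 0.955, and 0. All 12 Y-linked genes were at the floor, the fertility factors *kl-2*, *kl-3*, and *kl-5* at 0.

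**Figure D2:**
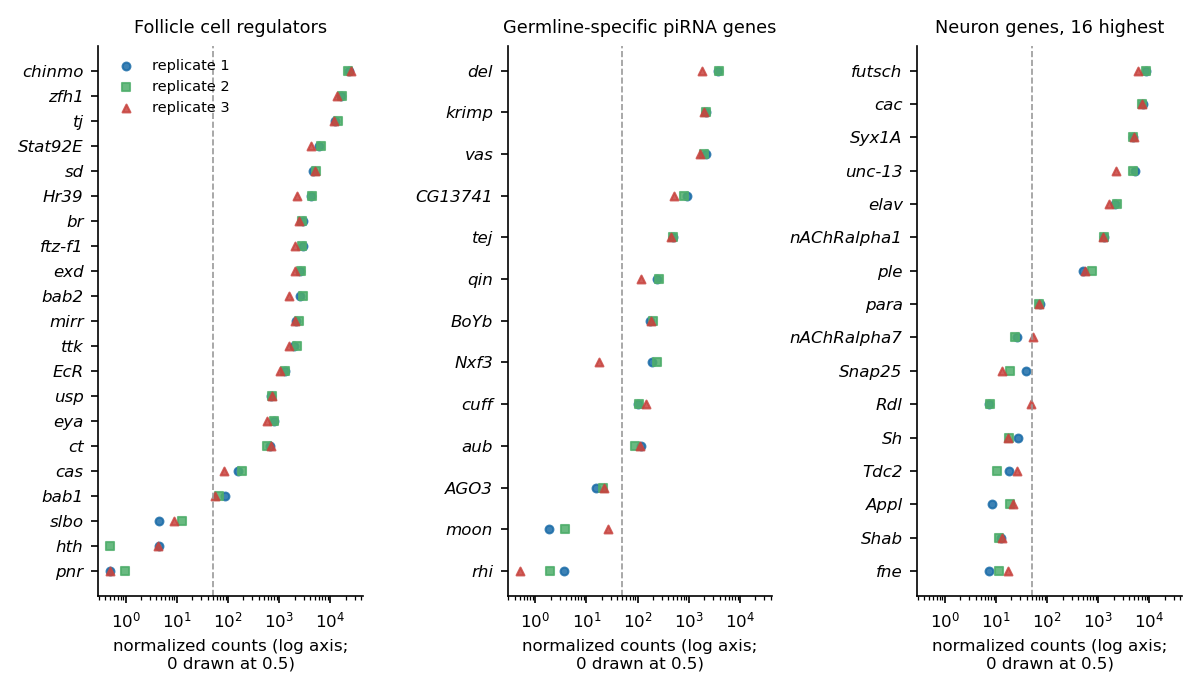
Normalized counts (x axis, log scale, 0 drawn at 0.5) of each gene in replicates 1 (circles), 2 (squares), and 3 (triangles), for follicle cell regulators, germline-specific piRNA genes, and the 16 highest neuron genes by count; the dashed line marks 50. *Nxf3* (194, 244, and 17.5) lies below the line only in replicate 3, and all values of *rhi*, *moon*, *hth*, and *pnr* lie below the line.

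**Figure D3:**
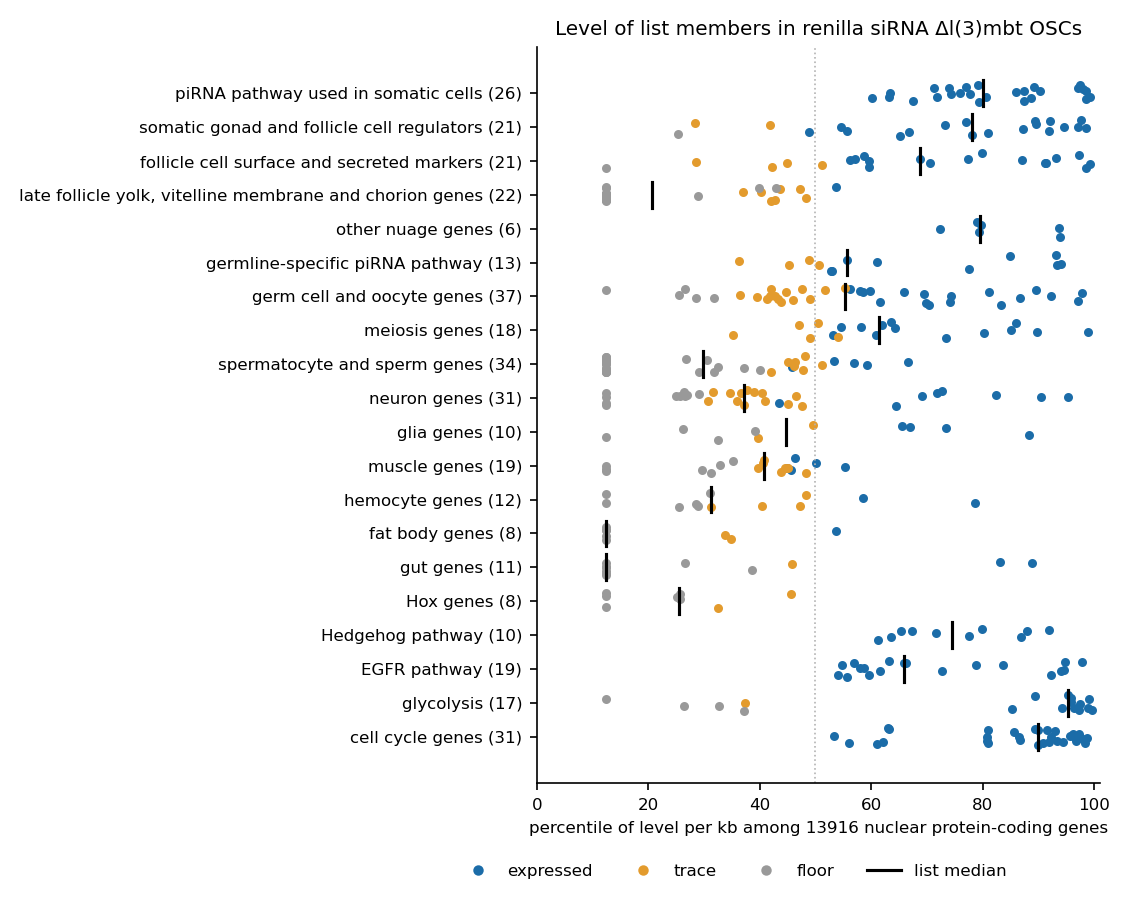
Percentile of level per kb among all nuclear protein-coding genes (x axis) for each member of 20 lists, colored by tier, with the list median as a bar; sizes of lists are in parentheses. Medians reach 95.4 for glycolysis and 90.02 for the cell cycle. The median of late follicle genes is 20.7, a value that falls to 12.84 without replicate 3. Genes at 0 in all libraries share a tied percentile of 12.46, where the leftmost points stand.

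A minority of neuron genes was expressed. Of 31 neuron genes, 8 (25.8%) were expressed, against 47.1% of all protein-coding genes, and the list median lay at percentile 37.2. *Syx1A*, a syntaxin of vesicle fusion that other secretory cells use as well, had 4747, 4753, and 5018. *cac* (cacophony), the presynaptic calcium channel subunit, had 7564, 7061, and 7251, and *futsch*, the MAP1B homolog of axons, 8508, 8410.2, and 5889. *elav*, the pan-neuronal RNA-binding protein, had 2108, 2316, and 1620.2, *unc-13*, the vesicle priming factor, 5124, 4825, and 2233, and *ple*, tyrosine hydroxylase, 497, 738, and 539. *nAChRalpha1*, a nicotinic receptor subunit, had 1312, 1294, and 1252. The synaptic release genes *Syt1*, *nSyb*, *brp*, and *Snap25* stayed under 50 in every library, unlike *Syx1A*. *Syt1* (synaptotagmin) had 3.64, 2.86, and 4.38, *nSyb* (synaptobrevin) 3.64, 10.5, and 4.38, *brp* (bruchpilot) 6.38, 5.73, and 4.38, and *Snap25* 39.2, 19.1, and 13.1. Transmitter genes *VGlut*, *VAChT*, and *Trh* were listed at 0.

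Neural progenitor and eye genes also held few expressed members, against 47.1% of all protein-coding genes. Among 14 neural progenitor genes, 3 (21.4%) were expressed, *brat*, *insc*, and *numb*, which also act outside neuroblasts. *brat*, the highest, had 2647, 2879, and 2767. The neuroblast factors *ase* and *dpn* had 0, 0.955, and 0 for *ase* and 0.911, 1.91, and 4.38 for *dpn*. Among 10 glia genes, 4 (40%) were expressed, near the share of all protein-coding genes. They were led by *wrapper*, a surface protein of midline glia, at 942, 916, and 1090.3. The defining glial factors *repo* and *gcm* had 0.911, 0, and 4.38 for *repo* and 0.911, 0, and 0 for *gcm*. Among 16 eye genes, 2 were expressed, the homeobox gene *so* (sine oculis) at 739, 699, and 521 and the phospholipase *norpA* at 1271, 1126, and 1038, and the opsin *ninaE* had 0, 0.955, and 0.

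Markers of other tissues were low. Of 19 muscle genes, 5 passed 50 in each library, and of these *Prm* (paramyosin) and *Mef2* lay above percentile 50. *sls*, a giant titin-like gene, had 425, 422, and 319.6 normalized counts but only 6.59 ± 1.01 per kb. Of 12 hemocyte genes, 2 were expressed. *crq*, a scavenger receptor, had 817, 809.5, and 578, and *srp*, a GATA factor, 455, 546, and 280.2, while *Hml* (hemolectin) had 9.11, 2.86, and 4.38. Fat body genes gave 1 expressed of 8, *Mtp* at 118, 136, and 101, with *Lsp2* and *Fbp1* at 0. Gut genes gave 2 of 11, *esg*, a Snail-family factor also active in the testis and imaginal cells, at 1247, 1468, and 867 and the myosin *Myo31DF* at 1519, 1839, and 1068. The amylase and trypsin genes, near-identical copies whose reads are uncertain, were listed at 0. Of 14 antimicrobial peptide genes, 0 were expressed and 11 were at the floor, *CecA1* being highest per kb at 4.56, 4.77, and 4.38.

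Body-patterning genes were silent with few exceptions. None of 8 Hox genes reached 50 in each library. *Antp* (Antennapedia) came closest, at 56.5, 69.7, and 30.7, below 50 only in replicate 3, and *Ubx*, *lab*, and *pb* were listed at 0. Among 19 segmentation genes, 3 were expressed. *h* (hairy), a bHLH repressor used in many tissues, had 1802, 2352, and 2469.6, *hh* is given above, and *gt* (giant), a gap factor, had 65.6, 52.5, and 70.1. *eve*, *ftz*, *hb*, and *prd* were listed at 0.

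Sex determination genes were expressed, 16 of 18 with dosage compensation. *Sxl*, the female switch, had 5336, 5844, and 4528, *tra* (transformer) 303, 347, and 464, and *dsx* (doublesex) 9496, 10606, and 7116. *fru* (fruitless) had 5387, 5195, and 5618. Gene counts do not give the sex-specific splice forms of these genes. *msl-2*, the subunit that female flies keep from being translated, had 155, 163, and 52.5, the lowest protein-coding level per kb of the list. The noncoding RNAs of the male X had 16.4, 13.4, and 26.3 for roX1 and 6.38, 20.05, and 43.8 for roX2.

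The listed subunits of L(3)mbt-containing complexes were all expressed, 15 of 15. *l(3)mbt* itself had 2748, 2586, and 1668 at percentile 86.4. The place of the deletion is not given in the sources used here, so the count over the whole gene does not check the genotype. Of the LINT complex, *Lint-1* had 752, 707, and 885 and *CoRest* 1937, 1775, and 1927. Of dREAM, *mip120* had 641, 642, and 517, *mip130* 429, 384, and 324, *Myb* 2619, 2627, and 1760.3, *E2f2* 379.9, 394, and 368, *Rbf* 607, 687, and 394, and *Rbf2* 159, 181, and 83.2, the lowest of the list. *Caf1-55*, the histone-binding subunit shared with many complexes, was the highest per kb at 1304 ± 99.1.

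Signaling pathways differed in how many members were expressed, and all of the EGFR and Hedgehog genes were. The EGFR list held 19 genes. *Egfr* had 1506, 1499.7, and 911, and of its ligands *spi* (spitz) had 1847, 1941, and 1918, *vn* (vein) 731, 761, and 504, *grk* the values given above, and *Krn* (Keren) 72.9, 67.8, and 70.1. The feedback inhibitors *kek1* (kekkon) and *sty* (sprouty) were higher than the receptor per kb, at 2404 ± 173 for *kek1* and 740.1 ± 269 for *sty*, against 188 ± 49.2 for *Egfr*. *aos* (argos), a secreted inhibitor, had 171, 223, and 123.

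The Hedgehog list held 10 genes. The ligand *hh* had 276 ± 12.9 normalized counts per kb, the receptor and target *ptc* (patched) 718 ± 230.4, the transducer *smo* (smoothened) 110.4 ± 34.1, and the effector *ci* 486 ± 179. In JAK/STAT, 7 of 10 were expressed. The receptor *dome* had 1889, 1958, and 1484, the kinase *hop* 993, 1003, and 398, and the inhibitor and target *Socs36E* 1439, 1822, and 1957. The 3 *upd* ligands and the receptor-like gene *et* were the lowest of the list per kb, with 17.3, 21.96, and 61.3 for *upd2*.

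In the Notch pathway, 12 of 18 were expressed. *N* (Notch) had 4278, 4245, and 5014, its ligand *Dl* (Delta) 234, 261, and 179.5, and the second ligand *Ser* (Serrate) 4.56, 11.5, and 4.38. The protease *kuz* was the highest per kb, with 8738, 8302, and 9629. Of the *E(spl)* targets, *E(spl)m3-HLH* had 533, 549.9, and 828 and *E(spl)mbeta-HLH* 160.3, 128, and 215, and the others were at trace level or the floor. In the Wnt pathway, 15 of 21 were expressed. The ligands *Wnt5*, *Wnt6*, and *Wnt4* had 265 ± 53.7, 171 ± 34.9, and 167 ± 33.6 normalized counts per kb. *wg* had 23.7 ± 10.2, and its targets *nkd*, *fz3*, and *Notum* stayed at trace level. *arm*, the fly β-catenin, had 4302, 4250, and 2894, and *fz* (frizzled) 824, 902, and 793.

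In the BMP and Activin pathway, 15 of 20 were expressed. *gbb*, a BMP ligand, had 598, 629, and 635, whereas *dpp* had 51.9, 37.2, and 61.3. The TGF-β family ligands *myo* (myoglianin) and *mav* (maverick) had 1556, 1557, and 1129.7 for *myo* and 827, 838, and 482 for *mav*. Receptors *babo*, *put*, *sax*, and *tkv* had 419 ± 92.0, 262 ± 26.4, 249 ± 14.03, and 56.6 ± 15.01 normalized counts per kb, while *wit* had 1.47 ± 1.33. In the list of PVR, FGF, and Torso genes, 9 of 13 were expressed. *bnl* (branchless), an FGF ligand, had 10980.5, 10342, and 16521 at percentile 98.2, and its receptor *btl* (breathless) 29.2, 17.2, and 4.38. *Pvr* had 1092, 1043, and 556, with its ligands *Pvf2* and *Pvf3* at 590.3, 565, and 885 for *Pvf2* and 481, 541, and 744 for *Pvf3*. *pyr*, a ligand of the second FGF receptor *htl*, had 841, 853, and 569, against 175, 158, and 118 for *htl*.

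Insulin and TOR signaling gave 15 expressed genes of 23. *InR*, the insulin receptor, had 2411, 2726, and 3288, and *Ilp6* was the one insulin-like peptide expressed, at 1006, 905, and 1025, with *Ilp2* and *Ilp3* at 0. *Thor*, the 4E-BP translation inhibitor and FOXO target, had 3560.2, 4431, and 6332 at percentile 99.01. Ecdysone and juvenile hormone genes gave 13 of 25. The receptor genes *EcR* and *usp* had 1310, 1273, and 1033 for *EcR* and 707, 722, and 736 for *usp*, and *Met*, a juvenile hormone receptor, 840, 856, and 1073. Of the biosynthetic P450 genes, *spo* (spook) had 128, 90.7, and 48.2, under 50 in replicate 3, and *phm*, *sad*, *dib*, and *shd* were at trace level or the floor. The juvenile hormone epoxide hydrolases *Jheh1* and *Jheh2* were the highest of the list per kb, with 2006, 1839, and 1712 for *Jheh1* and 2164, 2093, and 2137 for *Jheh2*.

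Toll and Imd genes gave 17 of 19. *Rel* (Relish), the Imd NF-κB factor, had 2172, 2016, and 1795, *imd* 95.7, 109, and 87.6, and the inhibitor *pirk* 249.6, 265, and 267, whereas *PGRP-LC*, the main Imd receptor at the cell surface, had 0.911, 0, and 0. The intracellular receptor *PGRP-LE* had 376, 364, and 368. In the Hippo pathway, 11 of 13 were expressed. *yki* (yorkie) had 749.8, 797, and 793 and *sd* (scalloped), its DNA-binding partner, 4539.6, 5249, and 4909. The upstream protocadherins had 106, 80.2, and 39.4 for *ft* (fat) and 1.82, 1.91, and 0 for *ds* (dachsous). JNK genes gave 8 of 9, the phosphatase and target *puc* (puckered) at 2512, 2959, and 2137 and the TNF ligand *egr* (eiger) at 1978, 1959, and 1787. Of its receptors, *wgn* had 165, 153, and 114 and *grnd* 12.8, 19.1, and 0.

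Epithelial junction genes were expressed throughout. All 15 adherens junction and polarity genes were expressed, with 1326, 1470.1, and 950.2 for *shg*, the fly E-cadherin, and 1897, 1815, and 1427 for *CadN*, N-cadherin. The apical determinant *crb* (crumbs) had 1172, 1055, and 679, and the immunoglobulin protein *ed* (echinoid) was the highest per kb at 1750.3 ± 23.1. All 10 septate junction genes were expressed, led by *Atpalpha*, the sodium pump subunit, at 22324, 23932, and 16158. *Nrg* (neuroglian) had 8270.2, 7693, and 8101. Of 18 matrix and integrin genes, 11 were expressed. The laminin genes *LanA*, *LanB1*, and *LanB2* had 1096 ± 432, 1281 ± 298, and 478 ± 141 normalized counts per kb, and *mys*, the β integrin, 1205 ± 216. The collagen IV genes *Col4a1* and *vkg* (viking) had only 22.8, 27.7, and 17.5 for *Col4a1* and 15.5, 9.55, and 13.1 for *vkg*, although *SPARC*, a collagen IV-binding protein, had 1004, 820, and 1209.

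Metabolic lists ranged from glycolysis, among the highest of all lists, to sugar transport and storage, at a median percentile of 53.4. The glycolytic list had a median at percentile 95.4, with 12 of 17 expressed, and its members outside that count were alternative isozymes such as *Hex-C*, *Hex-t1*, and *Pglym87*. *Ldh* led, followed per kb by *Gapdh2* at 6325 ± 595 and *Ald1* (aldolase) at 4714 ± 391. All 6 pentose phosphate genes were expressed, the oxidative enzymes *Zw* and *Pgd* lowest at 201 ± 41.5 and 229 ± 30.9 per kb, and *Taldo* (transaldolase) highest at 3629 ± 1116. In the citric acid cycle, 18 of 19 genes were expressed, *mAcon2* excepted.

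Fatty acid synthesis gave 7 of 9. *FASN1*, fatty acid synthase, had 29167, 28665, and 16000, and its tissue-restricted copies *FASN2* and *FASN3* 6.38, 3.82, and 4.38 for *FASN2* and 1.82, 0.955, and 0 for *FASN3*. Lipid oxidation and storage gave 9 of 10, at a median percentile of 66.6. Sugar transport and storage gave 5 of 10, with the trehalose transporter *Tret1-1* at 747, 791, and 784 and the glucose transporter *Glut1* at 2.73, 0, and 4.38. The trehalase *Treh* had 1169, 1032, and 867, but the trehalose synthase *Tps1* only 10.9, 10.5, and 4.38. In redox and iron metabolism, 13 of 15 were expressed. *GstD1* had 9784, 9767, and 17269.9, the ferritin chains *Fer1HCH* and *Fer2LCH* had 5358, 6065, and 6301 for *Fer1HCH* and 9705, 10182, and 9541 for *Fer2LCH*, and *Tsf1* (transferrin) was listed at 0.

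All 31 cell cycle genes were expressed, at a median percentile of 90.02. *PCNA*, the sliding clamp, had 4408, 3931, and 5171, *CycB* 4437, 4626, and 3831, *Cdk1* 1378, 1203, and 1563, and *stg* (string), the Cdc25 phosphatase, 3624, 3997, and 5631. The inhibitor *dap* (dacapo) had 784, 855, and 569, and *fzr*, which endocycling cells need, was next to lowest per kb at 54.97 ± 5.55. Of 16 actin and tubulin isotypes, 8 were expressed. The muscle actins *Act57B*, *Act87E*, *Act88F*, and *Act79B* and the germline isotypes *alphaTub67C* and *gammaTub37C* did not reach 50.

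Of 27 ribosomal protein genes with a paralog, counted singly, 21 were expressed. *RpS5a* had 19618, 19469, and 32994 and the germline-enriched *RpS5b* 5748, 5227, and 10181. *RpS19a* had 14221, 14958, and 30577 and *RpS19b* 167, 180.4, and 285, and *RpL22* had 13916, 12725, and 16779.5 and *RpL22-like* 2.73, 7.64, and 4.38. Reads can be split between near-identical copies, so these pairs are uncertain. Of 13 histone variant and HP1 genes, 8 were expressed, *His2Av* at 7674, 8277, and 10570.4 and the gene of HP1a, the main heterochromatin protein, at 3105, 3406, and 4374, and the germline members *BigH1* and *HP1e* had 11.8, 12.4, and 17.5 for *BigH1* and 0, 0, and 0 for *HP1e*.

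Of 11 genes of the Argonaute and small RNA machinery, 10 were expressed, *AGO3* excepted. *AGO2*, the siRNA Argonaute through which the transfected duplex acts, had 8519, 9466, and 6901, and *Dcr-2* 8406, 8718, and 4759.7. *AGO1*, for microRNAs, had 1079 ± 15.1 normalized counts per kb, against 96.96 ± 35.4 for *Dcr-1*. Of 17 heat shock genes, 10 were expressed. The constitutive *Hsc70-4* and *Hsp83* had 35037, 36884, and 29189 for *Hsc70-4* and 34243, 34574, and 32447 for *Hsp83*, and the inducible copies *Hsp70Aa* and *Hsp70Ab* 1.82, 0.955, and 21.9 for *Hsp70Aa* and 9.11, 19.1, and 17.5 for *Hsp70Ab*, near-identical genes whose counts are uncertain.

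Gene families ranged from fully expressed to not expressed. All 21 nucleoporins, 17 tRNA synthetases, and 8 CCT chaperonin subunits were expressed, as were 86 of 92 cytosolic and 72 of 73 mitochondrial ribosomal proteins. Sensory receptors were the reverse. Of 60 olfactory receptors, only *Or43b* was expressed, at 181, 148, and 136, of 60 gustatory receptors only *Gr61a*, at 265, 276, and 179.5, and of 66 ionotropic receptors 3, led by *Ir76a* at 376, 408, and 319.6. Of 70 cuticle proteins of the Cpr family only *Cpr67B* was expressed, at 199, 138, and 184, and of 47 accessory gland proteins only *Acp36DE*, at 163, 149, and 74.4. None of 27 digestive proteases of the Jonah and trypsin families was. Of 51 odorant-binding proteins, 2 were expressed.

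Of 85 cytochrome P450 genes, 18 were expressed, *Cyp4p2* first at 5329, 5274, and 4860.4. Of 35 glutathione S-transferases, 22 were, and of 35 UDP-glycosyltransferases, 8. The tetraspanin *Tsp42Ee* had 8367, 10172, and 11888, the highest per kb of 12 expressed among 34. Of 32 Dpr and DIP proteins, which pair neurons with their partners, 8 were expressed, *DIP-kappa* highest at 590.3, 507, and 324. Of 22 Beat and Side proteins, 3 were, *beat-IIIc* highest at 833, 751, and 845. Proteasome genes gave 34 of 47, and the 12 at the floor were *Prosalpha1*, named above, and copies with an R or T suffix. V-ATPase genes gave 17 of 32, *Vha16-1*, the main proteolipid, highest at 20902, 21631, and 19424. Of 10 nicotinic receptor subunits, 4 were expressed.

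**Figure D4:**
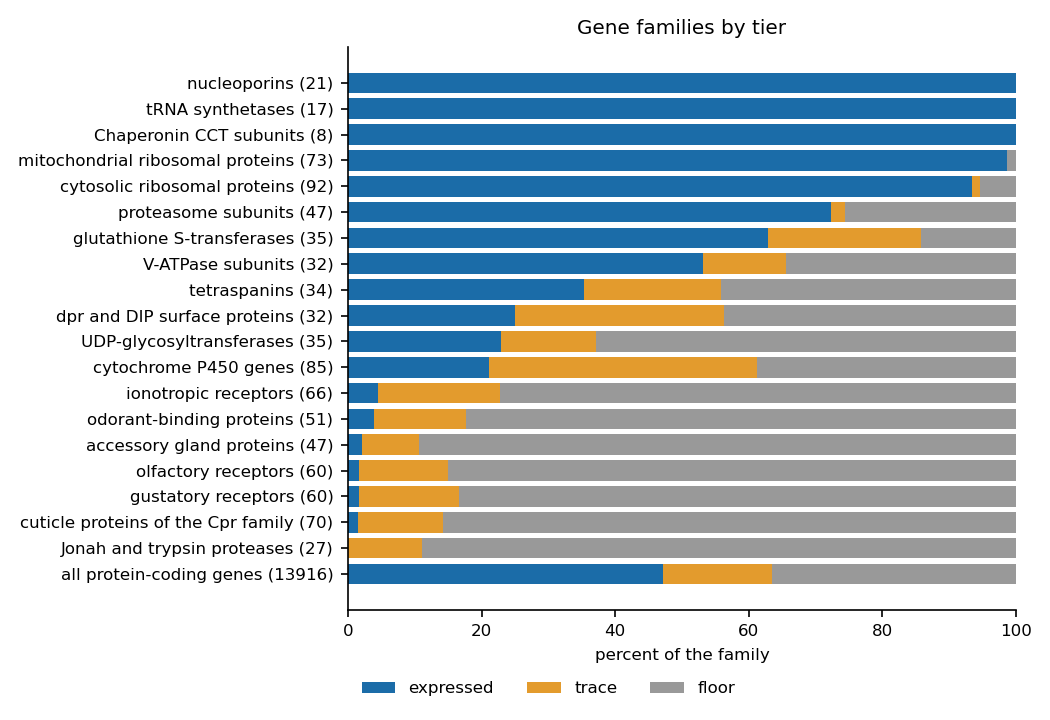
Percent of each gene family (x axis) that was expressed, at trace level, or at the floor, with family size in parentheses and all nuclear protein-coding genes in the lowest bar. The bars of nucleoporins, tRNA synthetases, and CCT subunits are filled by expressed genes, and 85% of olfactory receptors and 85.7% of Cpr cuticle proteins were at the floor, against 36.6% of all protein-coding genes.

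Noncoding genes contributed little. Of 1917 long noncoding RNAs, 68 were expressed, and the whole class took 0.615%, 0.626%, and 0.661% of the counts. The highest per kb were CR34335 at 6829.9, 8390.2, and 27034 and CR40469 at 3194, 4105, and 13605, both higher in replicate 3 than in the others. CR42862, of 5485 bp, went the other way at 31953, 31212, and 9506. CR45102 had similar values throughout, 2415, 2389, and 2189. The next 6 per kb were CR43963, CR44953, CR44281, CR44833, CR45973, and *noe*. Of 486 antisense RNAs, 20 were expressed, and of 259 microRNA hairpins, 2. Transfer RNAs, snRNAs, and most snoRNAs are not selected with poly(A), and 0 of 319, 0 of 32, and 1 of 304 were expressed.

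Chromosome 4 held the largest share of expressed protein-coding genes and the Y none. On the X, 1152 of 2172 (53.04%) were expressed, against 5342 of 11637 (45.9%) on 2L, 2R, 3L, and 3R together. Expressed X genes had a median of 208 normalized counts per kb, against 232 on those arms. On chromosome 4, 59 of 79 were expressed (74.7%), at a median of 412 per kb, with medians of 441, 473, and 317 in the 3 libraries. These fourth-chromosome genes had a median exonic length of 4385 bp, against 2189.5 bp on the other autosome arms. The Y had 0 of 23. Expression also went with length. Of protein-coding genes with at most 500 bp of exon, 11.1% were expressed, and of those over 4000 bp, 68.8%, a comparison in which the fixed count favors long genes.

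Promoters of expressed genes held the DRE more often than others. The window from 250 bases before to 50 after the annotated gene start was searched for exact words in 13911 protein-coding genes. The DRE, TATCGATA, bound by the factor DREF, stood in 17.1% of expressed promoters, 3.56% of trace promoters, and 1.61% of floor promoters, against 9.22% of all. Among expressed genes its share was 14.3%, 17.03%, 19.1%, and 17.9% from the lowest to the highest quartile of level per kb, so that it separated the tiers more than the levels within one. The share was 31.4% for 86 expressed ribosomal protein genes.

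The TATA box, TATAAA on the gene strand, was in 29.7% of expressed and 36.6% of floor promoters (32.2% of all). Its share was 32.7% in the highest quartile of expressed genes and 36.05% for the 86 expressed ribosomal protein genes. The initiator word TCAGT, also on the gene strand, was in 28.7% of expressed and 42.05% of floor promoters (36.1% of all). The E-box CAGCTG was in 22.1% of expressed and 12.2% of floor promoters (17.6% of all). The word GAGAG, searched on both strands, was most frequent in trace promoters, at 38.9%, with 29.7% of all. The word CCGTTA, found in Ovo sites and searched on both strands, was in 11.2% of expressed and 6.16% of floor promoters (8.86% of all). DRE and E-box read the same on both strands. A word of 5 or 6 letters occurs often without being a site.

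Promoter stretches of 6 genes, picked for holding the word shown, are examples of a DRE or a TATA box. They are the 100 bases upstream of the annotated start (dm6, gene strand, 5′ to 3′) in the 3 highest expressed genes per kb that hold a DRE there, all ribosomal proteins, and in the first 3 late follicle genes by name that hold a TATA box there, all chorion genes listed at 0. Capitals mark the DRE or the TATA box. Both sets were drawn from the X, 2L, 3L, 3R, and 4.
*RpS25* (chr3R:11216288-11216387, minus strand): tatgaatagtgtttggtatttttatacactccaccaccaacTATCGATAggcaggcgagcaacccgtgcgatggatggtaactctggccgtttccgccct
*RpL27* (chr3R:25685052-25685151, minus strand): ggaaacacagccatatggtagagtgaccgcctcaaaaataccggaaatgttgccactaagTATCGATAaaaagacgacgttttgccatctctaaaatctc
*RpS30* (chr3R:20850416-20850515, plus strand): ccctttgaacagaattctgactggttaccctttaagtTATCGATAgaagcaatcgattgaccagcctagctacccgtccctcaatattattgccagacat
*Cp15* (chr3L:8728381-8728480, plus strand): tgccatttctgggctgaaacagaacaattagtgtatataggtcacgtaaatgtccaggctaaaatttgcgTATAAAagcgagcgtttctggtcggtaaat
*Cp16* (chr3L:8731844-8731943, plus strand): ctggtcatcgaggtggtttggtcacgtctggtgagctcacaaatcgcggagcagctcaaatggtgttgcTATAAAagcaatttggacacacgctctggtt
*Cp19* (chr3L:8729765-8729864, plus strand): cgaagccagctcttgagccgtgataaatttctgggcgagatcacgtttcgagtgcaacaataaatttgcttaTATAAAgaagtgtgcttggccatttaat
Counted from the start, the DRE began 59, 40, and 63 bases upstream in *RpS25*, *RpL27*, and *RpS30*, and the TATA box 30, 31, and 28 bases upstream in *Cp15*, *Cp16*, and *Cp19*. *RpS25* had 18787, 19064, and 42054 normalized counts, *RpL27* had 21076, 21845, and 47291, and *RpS30* had 12956, 13478, and 28318.

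**Figure D5:**
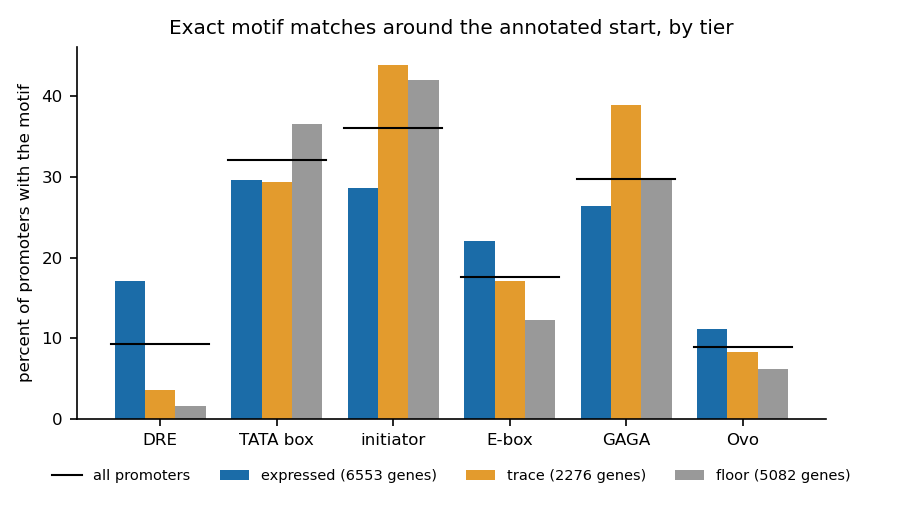
Percent of promoters (y axis) that hold an exact match to each of 6 words, for expressed, trace, and floor genes, with all promoters as a line. The DRE bars fall most steeply across tiers, 17.1%, 3.56%, and 1.61%, while initiator bars are lowest in expressed genes.

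Genes that departed most in replicate 3 mostly followed the length shift given above. The 10 with the smallest ratio had from 3633 to 26496 bp of exon. The 10 with the largest had from 214 to 797 bp, except CG7069 (2693 bp) and CR31044 (5106 bp). Of the 10 with the largest ratio to the mean of replicates 1 and 2, 5 were long noncoding RNAs, led by CR45994 at 129, 102, and 696 and with CR40469, CR34335, CR44129, and CR31044 after it. The other 5 were protein-coding and named only by annotation numbers, among them CG7069, a pyruvate kinase-like gene, at 98.4, 172, and 495, with CG32448, CG34034, CG17776, and CG4646 after it. Of the 10 with the smallest ratio, *Nxf3* is given above, *MED23*, a Mediator subunit, had 337, 388, and 48.2, *Sf3b3*, a splicing factor subunit whose exons are partly shared, 2237, 2339, and 469, and *kto*, the fly MED12, 1197, 1086, and 315. *Dscam1*, the hypervariable adhesion gene, had 420, 479, and 105, *GABA-B-R2* 187, 141, and 48.2, and the mucin-related *Mur2B* 832, 843, and 210.2. The last 3 were CR42862, given above, CG12182 at 159, 143, and 39.4, and CG9380 at 293, 254, and 78.8. Replicates 1 and 2 did not differ by 2-fold in any of these 20 genes.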

How the data were processed

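Poly(A) mRNA from 500 ng of total RNA was sequenced after strand-specific (dUTP) library preparation. Per the labels and methods, the authors trimmed reads with cutadapt 1.18, aligned them to the fly genome (dm6) with STAR 2.7.3a, counted them per gene with featureCounts (Subread 1.5.3), and normalized with DESeq2 1.30.1. Other counting settings, such as the treatment of multimapping reads, are not given in the sources used here. The deposited values, a signal without a unit, were gene counts divided by one size factor per library. A second deposited table held the authors' own comparison of the siRNAs (fold changes and p-values) and was not used. 0 columns came from outside the series.

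Whole reads were recovered by dividing each library by its smallest step, and 100% of values fell within 0.0100 of a whole number. No count model was fitted, since a single group was described. Exonic lengths came from Ensembl release 115 on the same assembly, with 17019 symbols matched directly, 737 through older symbols, and 51 not at all. Promoter sequence was read from the RefSeq dm6 genome. Python 3.11.15, pandas 2.3.3, numpy 2.4.6, scipy 1.17.1, and matplotlib 3.10.9 were used. Recovery of whole reads and of the expressed tier was checked on simulated counts.

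The 51 gene lists (812 genes), the members, and the tiers were chosen with earlier results of these data known. Named were the 20 highest genes per kb (except an item not reported here), the 10 highest long noncoding RNAs, list members (up to 5 highest and 5 at the floor, others by role), and the 10 largest and smallest ratios of replicate 3, among genes with a mean of at least 100. Chosen after values were seen were the non-ribosomal and highest-count genes, the printed promoters, the test without genes of shared exons, and edits to families and lists, in which *grn*, *Bili*, *nAChRalpha5*, *ctrip*, *Hip14*, and *wf* were dropped as ambiguous.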

Additional observations from a re-analysis of the deposited data

How the results depend on the processing

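Of 17807 genes, 6676 were expressed by the main definition, 7258 with a minimum of 20 normalized counts, 6021 with a minimum of 100, 6672 by scaling to library totals, and 6645 with replicates 1 and 2 thinned to the depth of replicate 3. Leaving out each replicate in turn gave 6726 to 6802 expressed genes. The floor held 8272 genes, 9558 after thinning, and 8297 to 8716 with a replicate left out. Cytosolic ribosomal proteins held 15.5% of counts on average, and 12.5% without replicate 3. Among the gene lists, the count of expressed members moved by over 1.5 times in late follicle genes (0 at a minimum of 100), spermatocyte genes (3 at 100), eye genes (4 at 20), and Hox genes (1 at 20, and 1 without replicate 3). With a replicate left out, the median percentile moved by over 1.5 times in late follicle genes (20.69, with a range of 12.84 to 23.63), spermatocyte genes (29.85, and 14.17 without replicate 2), antimicrobial peptide genes (35.65, and 14.61 without replicate 1 or 22.44 without replicate 3), and segment polarity and related genes (26.4, and 14.61 without replicate 1). Excluding genes that share 20% or more of their exonic bases, chosen after seeing the data, moved no list by that much. A ranking among expressed protein-coding genes only, which drops unexpressed members, moved the medians most. Over 48 lists the shift ran from -40.5 to 57.8 percentile points, with a median of -13.8. With the longest transcript as length it ran from -0.697 to 7.13. The percentiles above therefore hold for ranks among all nuclear protein-coding genes. Depth limits the low end, where 3 reads in replicate 3 equal 13.1 normalized counts. No paired analysis was possible because no test compared groups.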
